A study of Mus musculus with 9 samples.

Results

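The expression of 10 matrix metalloproteinase genes, Mmp2, Mmp3, Mmp9, Mmp10, Mmp11, Mmp12, Mmp13, Mmp14, Mmp19 and Mmp23, was examined in mouse hepatic stellate cells (HSCs) and in activated liver fibroblasts from 2 models of fibrosis. The genes were chosen by symbol, with earlier results of these data known, and all 10 were found among the 23 metalloproteinase genes and 24453 genes measured. Of the 10, 9 passed the filter on low reads and were tested, and Mmp9 did not.

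Matrix metalloproteinases are zinc-dependent endopeptidases that cut collagens, gelatin, elastin, proteoglycans and other proteins of the extracellular matrix. Most are secreted as inactive proenzymes held shut by a cysteine in their propeptide, and plasmin, furin-like convertases or other metalloproteinases open them, while the TIMP proteins block the active enzymes. In the liver they take part both in the build-up of scar and in its removal, and stellate cells and the fibroblasts that arise from them are among their sources.

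RNA sequencing covered 3 libraries for each of 3 groups on the C57BL/6J background, and each library was made from cells of 3 to 5 mice combined. HSC libraries came from healthy livers of untreated wild-type mice, from which the cells were separated on a density gradient. CCl4-fib libraries came from Col1a2-GFP Tg mice, which carry green fluorescent protein under the collagen α2(I) promoter, given carbon tetrachloride into the peritoneum 2 times per week for 8 weeks. NASH-fib libraries came from Col1a2-GFP Tg mice that also lacked the melanocortin 4 receptor (MC4R-KO, the cross named MC-COL), males put on Western diet at 8 weeks of age for 20 weeks, a model of obesity with non-alcoholic steatohepatitis. Fibroblasts of both models were sorted as CD45- GFP+ cells, so the sort took cells in which the Col1a2 promoter was active, while HSCs were not sorted in this way. Genotype, treatment and, against HSCs, the way of isolation change together between the groups, and their effects cannot be told apart. The ages of the HSC and CCl4-fib mice are not given in the sources used here. Labels do not say whether the mice behind one library were independent of those behind another, and p-values measure the spread between these libraries.

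The depth of HSC libraries was 3071070 to 3825522 reads on genes, that of CCl4-fib libraries 4687349 to 5634273 and that of NASH-fib libraries 3289758 to 5021156. NASH-fib replicate 1 stood apart from its group, with a correlation of 0.768 and 0.815 with the other 2 NASH-fib libraries and of 0.793 with HSC replicate 2, across genes, which are not independent replicates. Stellate cell markers (6 genes) had a summed value of 33677 to 50947 in HSCs, 3297 to 14677 in CCl4-fib and 16964 to 30816 in NASH-fib. Most of the NASH-fib sum was Rgs5, at a mean of 22010 against 20731 in HSCs. Lrat was at 282 in NASH-fib against 10733 in HSCs, and Reln at 267 against 9507. Of the 6, 4 were called lower than in HSCs in each model and 0 higher. Among all genes, 4.3% were called lower in NASH-fib and 11.7% in CCl4-fib. Activated fibroblast markers (6 genes) summed to 34896 to 41103 in CCl4-fib and 21433 to 26438 in NASH-fib, against 4935 to 8750 in HSCs. Of these 6, limma called 5 higher than in HSCs in each model, against 8.23% of all genes in NASH-fib and 16.2% in CCl4-fib. The remaining gene, Postn, was called lower in NASH-fib (-1.71, adjusted p = 0.0225 from limma), and DESeq2 called it lower in both models. Markers of other cells were also read in the groups, with hepatocyte markers (7 genes) at 19603 to 34970 in HSCs, 1707 to 2393 in CCl4-fib and 6661 to 24467 in NASH-fib. Mesothelial markers (4 genes) were at 147 to 533 in HSCs, 9464 to 14125 in CCl4-fib and 4956 to 17377 in NASH-fib. All 4 were called higher than in HSCs in both models, against 16.2% of all genes in CCl4-fib and 8.23% in NASH-fib. Endothelial markers (6 genes) were at 4644 to 10908 in HSCs, 180 to 275 in CCl4-fib and 1011 to 3263 in NASH-fib. Here 6 of 6 were called higher in NASH-fib than in CCl4-fib, against 4.97% of all genes. The part of these cells in the results was not tested. In such mixtures, more cells of a type and more RNA per cell cannot be told apart.

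Values below are the deposited ones, in which the reads of each library were scaled to a common total of about 4471991, so that a value is close to a read count. Levels of different genes are compared only as RPKM, which scales the reads of a gene by its exon length in kilobases and by the depth of the library. Differences between groups are log2 fold changes from limma on log2(value + 1), with Benjamini-Hochberg adjustment over 13651 genes. A difference was called if its log2 fold change was 1 or more in size and the adjusted p was under 0.05. This scale understates changes of genes with low values.

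Metalloproteinase transcripts were more abundant in both kinds of fibroblast than in HSCs, and their make-up differed between the models. The summed RPKM of all 23 genes was 72.7, 51.4 and 68.5 in HSC replicates 1 to 3. The CCl4-fib sums were 478, 475 and 577 and the NASH-fib sums 946, 646 and 670, so the groups did not overlap. In HSCs Mmp14 (21.2 ± 1.67 RPKM, SD, n = 3) and Mmp2 (16.8 ± 10.2) had the highest levels of the 10. In CCl4-fib the order was Mmp2 (158 ± 37.1), Mmp14 (116 ± 44.1) and Mmp3 (92.4 ± 53.5), and the ranges of these neighbours overlapped. In NASH-fib Mmp3 led with 538 ± 180 RPKM, and its lowest library, at 394, lay above the highest library of Mmp2, the next gene, at 69.6. Mmp3 alone made up 70.2% ± 8.71 of the summed RPKM in NASH-fib, against 18.8% ± 11.9 in CCl4-fib and 0.83% ± 1.43 in HSCs.

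**Figure D1:**
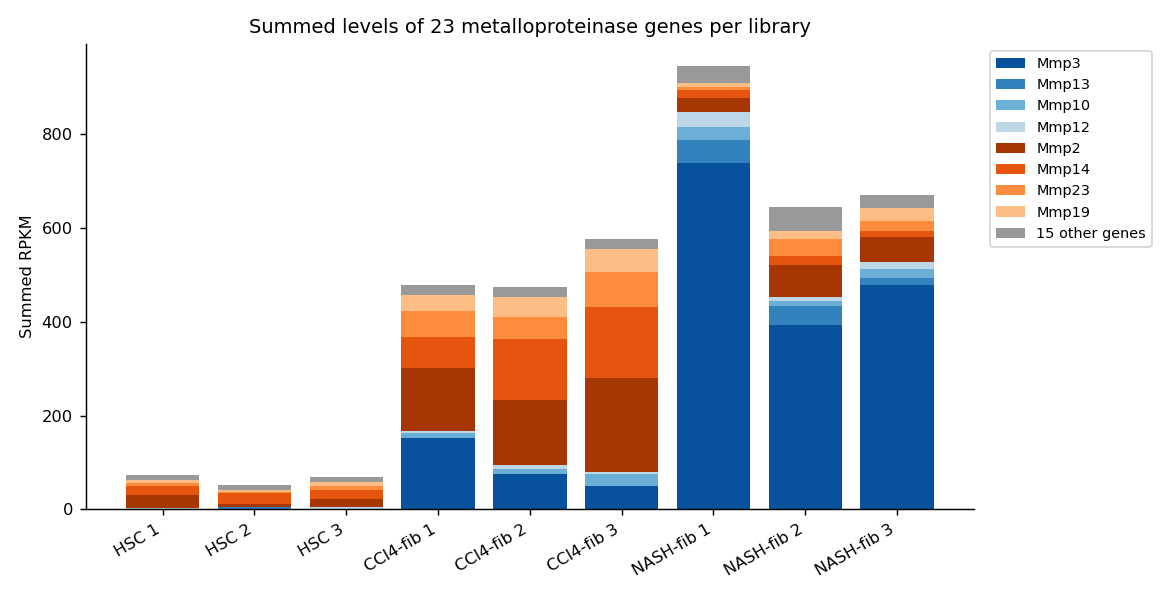
Stacked bars give the RPKM of each metalloproteinase gene in each of the 9 libraries, with the 4 chromosome 9 members in blue, Mmp2, Mmp14, Mmp23 and Mmp19 in brown and the 15 remaining genes in grey. Mmp3 fills most of the 3 NASH-fib bars, while Mmp2 and Mmp14 take the larger part of CCl4-fib replicates 2 and 3.

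Below these leading genes the order was less sharp. In HSCs the library ranges of every pair of neighbours in the order of the 10 members overlapped, down to Mmp3 at 0.42 ± 0.74 RPKM and Mmp10 at 0. In CCl4-fib Mmp23 (58.8 ± 13.7) and Mmp19 (42.6 ± 8.03) overlapped each other and lay apart from Mmp10 (14.9 ± 8.28), while Mmp9 (0.20 ± 0.19) and Mmp13 (0.17 ± 0.16) were last. In NASH-fib the ranges of neighbours overlapped from Mmp2 (51.2 ± 20.2) through Mmp13 (34.1 ± 17.1), Mmp23 (20.7 ± 14.6), Mmp10 (18.9 ± 9.01), Mmp12 (18.4 ± 11.6) and Mmp19 (18.2 ± 8.74) to Mmp14 (16.1 ± 3.84). Mmp11 (4.48 ± 3.84) and Mmp9 (0.48 ± 0.68) followed apart from them.

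In the comparison of NASH-fib with HSCs, 4 of 9 tested members were called higher, Mmp3, Mmp10, Mmp12 and Mmp13, where 8.23% of all tested genes were called higher. No member was called lower by limma, where 4.3% of all genes were, and 0 had an unadjusted p under 0.05 in that direction. edgeR and DESeq2 on the recovered reads also called 0 lower. In the comparison of CCl4-fib with HSCs, 6 of 9 were called higher, Mmp2, Mmp3, Mmp10, Mmp14, Mmp19 and Mmp23, against 16.2% of all genes. None was called lower by limma, where 11.7% of all genes were, with 0 at an unadjusted p under 0.05 and 0 by edgeR, although DESeq2 called Mmp13. Between the models, NASH-fib had 1 member called higher than CCl4-fib, Mmp13, against 4.97% of all genes, and 1 called lower, Mmp14, against 5.66%. The first 2 comparisons share the HSC libraries. Without NASH-fib replicate 1 the count higher in NASH-fib than in HSCs was 6, made up of Mmp2, Mmp3, Mmp10, Mmp13, Mmp19 and Mmp23, and without HSC replicate 2 the counts between the models were 2 higher, with Mmp3 added, and 2 lower, with Mmp2 added.

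**Figure D2:**
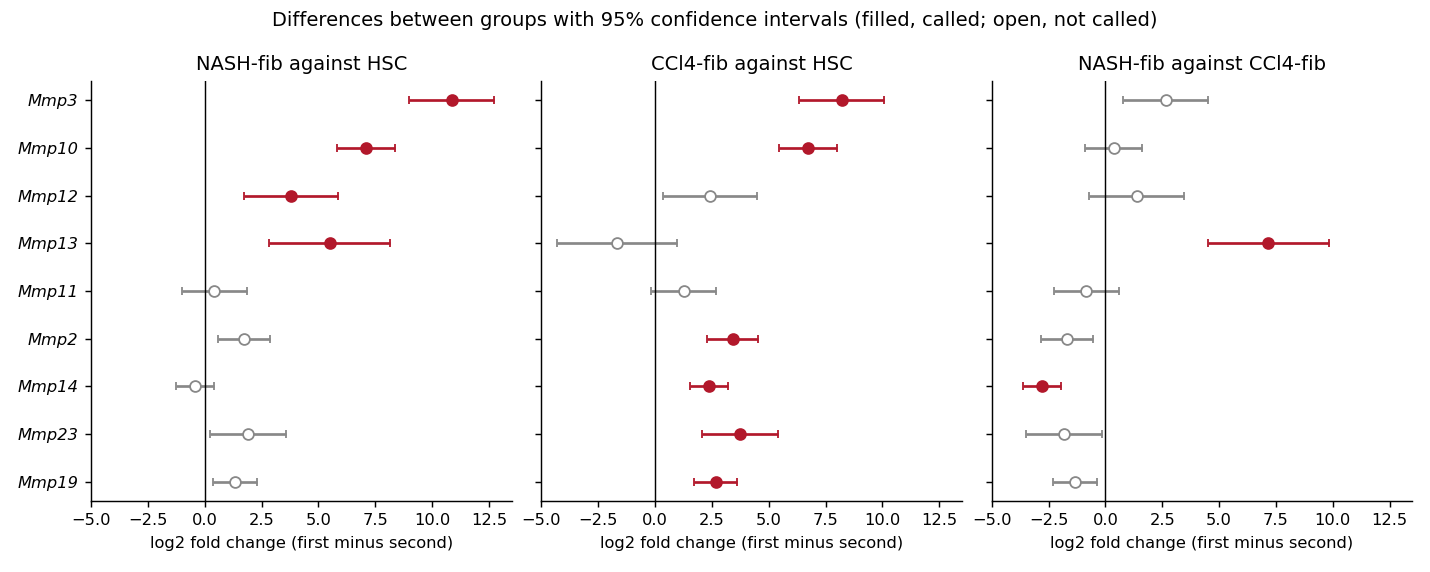
Points give the log2 fold change of each tested member in the 3 comparisons and bars its 95% confidence interval, filled where called. Mmp13 and Mmp14 are the filled points between the models, at 7.17 and -2.79.

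Mmp13 encodes collagenase-3, the main enzyme that opens the triple helix of fibrillar collagen in the mouse. The gene (RefSeq NM_008607) lies on the plus strand of chromosome 9 at bases 7272514 to 7283333 of mm10. The HSC values were 11.69, 40.77 and 0, those of CCl4-fib 2.38, 0 and 3.82 and those of NASH-fib 570, 471 and 179. All NASH-fib libraries were above every other library, and CCl4-fib held at most 4 reads of the gene. Mmp13 was higher in NASH-fib than in CCl4-fib by a log2 fold change of 7.17 (95% confidence interval 4.51 to 9.83, adjusted p = 0.0106 from limma) and higher than in HSCs by 5.49 (2.84 to 8.15, adjusted p = 0.0118). Its difference between CCl4-fib and HSCs was -1.67 (-4.33 to 0.98, adjusted p = 0.320) and was not called, and without HSC replicate 3, which had no read, it was -3.18 and called lower (adjusted p = 0.0237 from limma). Against HSCs, a term for the date-like prefix of the library labels raised the adjusted p from limma to 0.0650 at a log2 fold change of 4.46. Within prefix 11-3, which holds 1 library of each group, Mmp13 was at 570 in NASH-fib, 2.38 in CCl4-fib and 40.77 in HSCs, and within 11-7 it was at 471 and 179 in NASH-fib and 3.82 in CCl4-fib.

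Mmp13 is also a gene of osteoblasts and of some inflammatory cells, and markers of these differed between the groups. The 5 osteoblast-type genes had a summed value of 90.9 to 143 in HSCs, where Bglap, Ibsp and Sp7 were at 0. The sum was 71.4 to 100.4 in CCl4-fib and 446 to 1341 in NASH-fib. Of the 4 tested, 2 were called higher in NASH-fib than in CCl4-fib by limma, against 4.97% of all genes. edgeR also called 2, Bglap and Ibsp, and DESeq2 only Ibsp, while 1 was lower at an unadjusted p under 0.05 in limma. Against HSCs, limma called 2 higher in NASH-fib and 1 lower, Alpl (-3.27, adjusted p = 0.0131), where 8.23% and 4.3% of all genes were called. Neutrophil markers (10 genes) summed to 52.6 to 1076 in HSCs, to 5.55 to 78.2 in CCl4-fib, where Ly6g and Csf3r were at 0, and to 614 to 6459 in NASH-fib. Of the 8 tested, 5 were called higher in NASH-fib than in CCl4-fib, against the same 4.97%. Across NASH-fib replicates 1 to 3 the neutrophil sums were 614, 6459 and 1331 beside Mmp13 values of 570, 471 and 179. In HSC replicates 1 to 3 they were 52.6, 1076 and 74.1 beside 11.69, 40.77 and 0. The CCl4-fib sums were 5.55, 44.2 and 78.2 beside 2.38, 0 and 3.82. The sort took CD45- cells, a gate meant to leave out neutrophils, yet their markers were read in the sorted libraries. The part of these cells in the Mmp13 values was not tested.

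Mmp3 encodes stromelysin-1, which cuts proteoglycans, fibronectin and laminin and can activate other metalloproteinases. It lies on chromosome 9 (NM_010809, bases 7445822 to 7455974, plus strand). HSC replicates 1 to 3 had values of 0, 10.19 and 0, CCl4-fib of 1218, 603 and 395 and NASH-fib of 5917, 3147 and 3834. The 3 groups did not overlap, and the HSC values rest on 7 reads in a single library. Mmp3 exceeded its HSC level by 8.21 on the log2 scale in CCl4-fib (standard error 0.84, adjusted p = 9.43e-05 from limma) and by 10.86 in NASH-fib, and both calls held in 18 of 18 alternatives. Between the models its difference of 2.65 (95% confidence interval 0.78 to 4.51, adjusted p = 0.0715 from limma) missed the threshold. It was called in 4 of 18 alternatives, with DESeq2 (adjusted p = 0.00231), with a pseudocount of 5, with the libraries of the 2 models alone and without HSC replicate 2 (adjusted p = 0.0120 from limma). At most 3 reads per position were counted in these data, and Mmp3 reached 2.43, 1.98 and 2.18 reads per exon base in NASH-fib against 0.23 to 0.86 in CCl4-fib, so its NASH-fib values may be flattened by that limit, to an extent that was not tested.

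Mmp10 encodes stromelysin-2, a close relative of Mmp3 with a like range of substrates, and lies in the same cluster (NM_019471, bases 7502342 to 7510242 of chromosome 9, plus strand). It had 0 reads in all 3 HSC libraries. CCl4-fib had values of 70.6, 85.9 and 188 and NASH-fib of 220, 82.8 and 135, which overlapped. Against a floor of 3 reads per HSC library, the mean of Mmp10 was at least 30.1-fold higher for CCl4-fib and at least 38.2-fold higher for NASH-fib. Mmp10 was called in both (adjusted p = 3.81e-05 and 4.02e-05 from limma). Such bounds cover counting error only, because reads of amplified RNA that carry no molecular identifiers can be copies of 1 molecule. The difference between the models was 0.37 (95% confidence interval -0.89 to 1.62, adjusted p = 0.695 from limma).

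Mmp12 encodes macrophage metalloelastase, which degrades elastin and is best known from macrophages (NM_008605, chromosome 9, bases 7347374 to 7360461, plus strand). In HSCs it had values of 18.70, 2.91 and 84.88, while CCl4-fib had 84.13, 139 and 83.00 and NASH-fib 502, 137 and 250. The lowest NASH-fib library lay above all HSC libraries, while both other pairs of groups overlapped. Mmp12 was called higher in NASH-fib than in HSCs (log2 fold change 3.79, standard error 0.94, adjusted p = 0.0224 from limma). That call was lost with the libraries of the 2 groups alone (adjusted p = 0.0712 from limma), and without HSC replicate 1 (0.0676), NASH-fib replicate 1 (0.0548) or NASH-fib replicate 3 (0.0660). The difference between CCl4-fib and HSCs was 2.42 (adjusted p = 0.0796 from limma), and 3.51 without HSC replicate 3, when it was called (adjusted p = 0.00890). Macrophage markers (11 genes) summed to 4628 to 16311 in HSCs, 425 to 953 in CCl4-fib and 3008 to 6306 in NASH-fib. None of the 11 was called higher in NASH-fib than in HSCs by limma, edgeR or DESeq2, and 0 had an unadjusted p under 0.05 in that direction. Lower calls numbered 3 by limma (Csf1r, Clec4f and Marco), 1 by edgeR and 5 by DESeq2. Of all genes, limma called 8.23% higher and 4.3% lower. Between the models, 4 of the 11, Adgre1, Vsig4, Lyz2 and Ptprc, were called higher in NASH-fib, against 4.97% of all genes. The difference of Mmp12 there was 1.37 and not called. The part of macrophages in the Mmp12 values was not tested.

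Mmp11 encodes stromelysin-3, which is activated inside the cell by furin and has weak activity on matrix proteins (NM_008606, chromosome 10, bases 75923222 to 75932502, minus strand). The HSC values were 45.59, 13.11 and 32.28, those of CCl4-fib 51.59, 76.55 and 72.51 and those of NASH-fib 24.47, 90.84 and 21.62. CCl4-fib lay just above HSCs, and NASH-fib spanned both. No difference was called, with log2 fold changes of 0.42 (95% confidence interval -1.02 to 1.87) for NASH-fib against HSCs, 1.26 (-0.18 to 2.70) for CCl4-fib against HSCs and -0.83 (-2.28 to 0.61) between the models. The first of these turned to -0.07 without HSC replicate 2 and to -0.22 without NASH-fib replicate 2. Its exons overlap those of Chchd10 on the other strand over 155 bases, and reads of both strands were counted.

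Mmp14 encodes MT1-MMP, a collagenase held in the cell membrane that also activates proMMP-2 (NM_008608, chromosome 14, bases 54431604 to 54441258, plus strand). HSC replicates 1 to 3 had values of 229, 266 and 239, CCl4-fib of 776, 1493 and 1761 and NASH-fib of 201, 222 and 137. Mmp14 thus stood high in every CCl4-fib library, and the NASH-fib libraries were all slightly under the HSC libraries. It was higher in CCl4-fib than in HSCs, by 2.37 on the log2 scale (standard error 0.38, adjusted p = 0.00127 from limma) and lower in NASH-fib than in CCl4-fib, by -2.79 (95% confidence interval -3.63 to -1.94, adjusted p = 0.00644). The second call held in 18 of 18 alternatives, with an adjusted p of at most 0.0374 from limma, edgeR or DESeq2. Between NASH-fib and HSCs the difference was -0.42 (-1.26 to 0.43, adjusted p = 0.629 from limma) and was not called, and an exact permutation test of 3 libraries against 3 cannot give a p under 0.1. Within prefix 11-3 Mmp14 was at 776 in CCl4-fib, 201 in NASH-fib and 266 in HSCs, and within 11-7 at 1761 in CCl4-fib and at 137 and 222 in NASH-fib.

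Mmp2 encodes gelatinase A, which degrades gelatin and type IV collagen and is a product of activated stellate cells (NM_008610, chromosome 8, bases 92827328 to 92853420, plus strand). In HSCs it had values of 371, 94.65 and 218, while CCl4-fib had 1819, 1871 and 2714 and NASH-fib 401, 942 and 736, with no overlap among the groups. Mmp2 was called higher in CCl4-fib than in HSCs (log2 fold change 3.41, standard error 0.51, adjusted p = 0.000837 from limma). The difference between NASH-fib and HSCs was 1.72 (95% confidence interval 0.60 to 2.85, adjusted p = 0.0513 from limma), just short of the threshold, and it was called in 5 of 18 alternatives, among them the fits without HSC replicate 1 (adjusted p = 0.0262) and without NASH-fib replicate 1 (0.0215). Between the models it was -1.68 (-2.81 to -0.56, adjusted p = 0.0601 from limma), called in 4 of 18 alternatives, of which 1 left out HSC replicate 2 (adjusted p = 0.0268).

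Mmp9, gelatinase B, which neutrophils and macrophages release, was low in every library (NM_013599, chromosome 2, bases 164948219 to 164955849, plus strand). The HSC values were 5.84, 8.74 and 20.32, those of CCl4-fib 0.79, 5.95 and 1.91 and those of NASH-fib 2.72, 17.81 and 0. The groups overlapped and no test was made.

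Mmp23, which is anchored in the membrane by its N-terminal segment and lacks the usual cysteine switch, lies on chromosome 4 (NM_011985, bases 155650655 to 155653384, minus strand). HSC replicates 1 to 3 had values of 46.76, 8.74 and 45.43, CCl4-fib of 353, 299 and 470 and NASH-fib of 35.34, 221 and 140. CCl4-fib lay above both other groups. It was called higher in CCl4-fib than in HSCs (log2 fold change 3.73, standard error 0.76, adjusted p = 0.00455 from limma), while NASH-fib differed from HSCs by 1.90 (adjusted p = 0.153) and from CCl4-fib by -1.82 (adjusted p = 0.143). Without NASH-fib replicate 1, its lowest NASH-fib library, the difference from HSCs was 2.66 and was called (adjusted p = 0.0222 from limma).

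Mmp19, which degrades basement membrane proteins and is widely expressed (NM_021412, chromosome 10, bases 128790953 to 128800824, plus strand), followed the same order. In HSCs it had values of 95.86, 77.18 and 134, while CCl4-fib had 521, 657 and 764 and NASH-fib 144, 274 and 410, with no overlap among the groups. It was called higher in CCl4-fib than in HSCs (log2 fold change 2.67, standard error 0.43, adjusted p = 0.00131 from limma). NASH-fib lay 1.34 above HSCs (adjusted p = 0.0742 from limma), called without NASH-fib replicate 1 (1.74, adjusted p = 0.0119), and -1.33 from CCl4-fib (adjusted p = 0.0745). Its exons overlap Tmem198b over 789 bases and Gm47093 over 212 bases on the other strand.

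**Figure D3:**
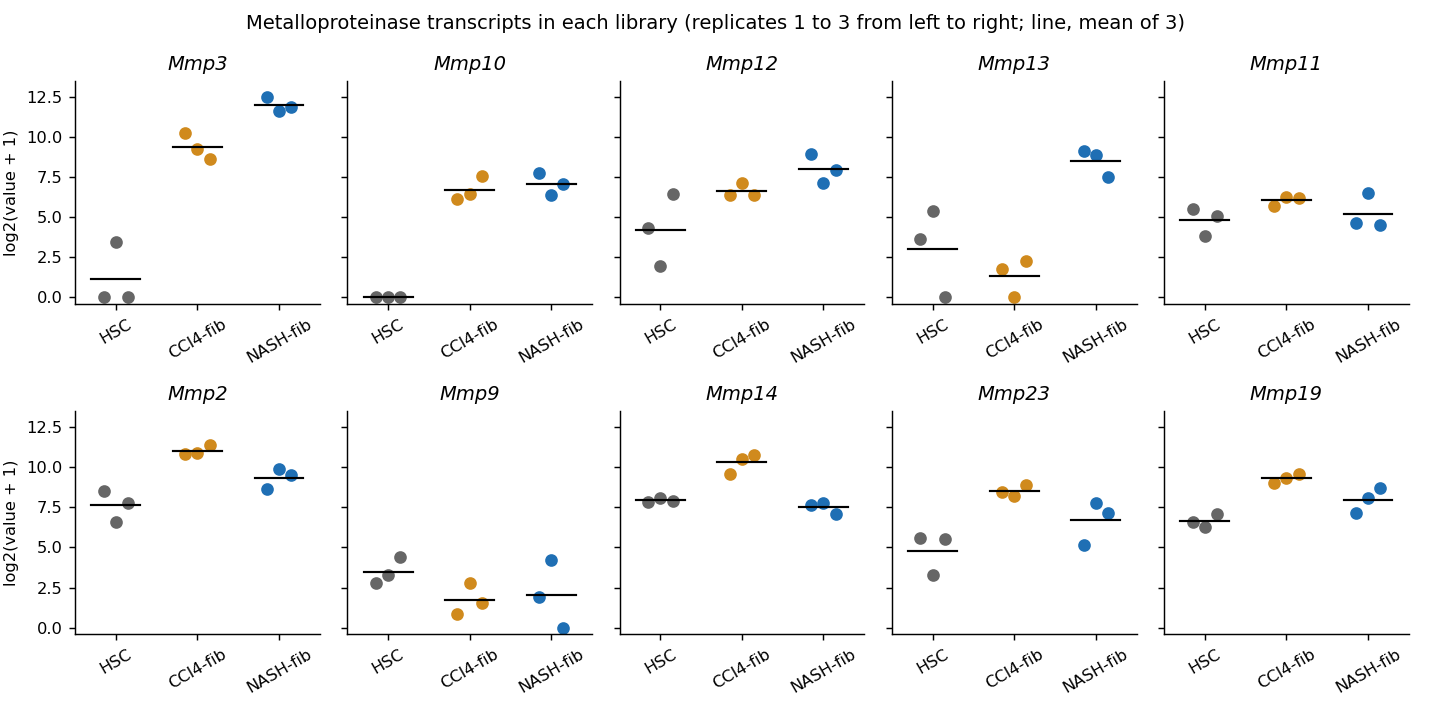
Points give log2(value + 1) of each of the 10 members in every library, with replicates 1 to 3 from left to right in each group and a line at the mean of 3. Mmp3 and Mmp13 are highest in NASH-fib, Mmp2, Mmp14, Mmp19 and Mmp23 in CCl4-fib, and Mmp10 is at 0 in all HSC libraries.

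The members that lie together on chromosome 9 and those elsewhere differed in the side on which they fell between the models. Mmp3, Mmp10, Mmp12 and Mmp13 belong to a cluster of 10 metalloproteinase genes over 426903 bases of chromosome 9 (7272514 to 7699416), in the order Mmp13, Mmp12, Mmp1b, Mmp3, Mmp1a, Mmp10, Mmp8, Mmp27, Mmp20 and Mmp7. The 4 cluster members held 92.9%, 74.9% and 81.8% of the summed RPKM of the 10 members in NASH-fib replicates 1 to 3. Their share was 36.0%, 20.7% and 14.1% in CCl4-fib and 3.16%, 11.3% and 8.44% in HSCs, so NASH-fib did not overlap the other groups. Mmp3 alone made up most of what the cluster members held in both models. It was at 740, 394 and 479 of 848, 452 and 528 RPKM in NASH-fib, and at 152, 75.4 and 49.4 of 167, 95.2 and 79.3 in CCl4-fib. For NASH-fib against CCl4-fib, 4 of the 4 tested cluster members had log2 fold changes above 0 (median 2.01) and 5 of the 5 tested members elsewhere below 0 (median -1.68), while the median over all tested genes was -0.11. These signs held in 72 of 72 and 90 of 90 alternative values, but only Mmp13 and Mmp14 were called. Part of these values could not differ from the main ones. Leaving out an HSC library, fitting the 2 groups only, dropping the filter or adding the replicate block does not change a fold change between the models. The other settings reuse the same libraries, so the tally is not a count of independent tests. Counting the other metalloproteinase genes as well, 7 of 7 tested cluster genes were above 0 and 7 of 8 tested genes elsewhere below 0, the exception being Mmp17 at 0.94, named here after its value was seen. Other scalings moved the median of all genes to 0.04 (upper quartile), 0.14 (edgeR) or 0.12 (DESeq2), and under these 3 Mmp16 (-0.08) turned above 0. For CCl4-fib against HSCs the median of all genes was 0.18, and 0.00 with edgeR.

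**Figure D4:**
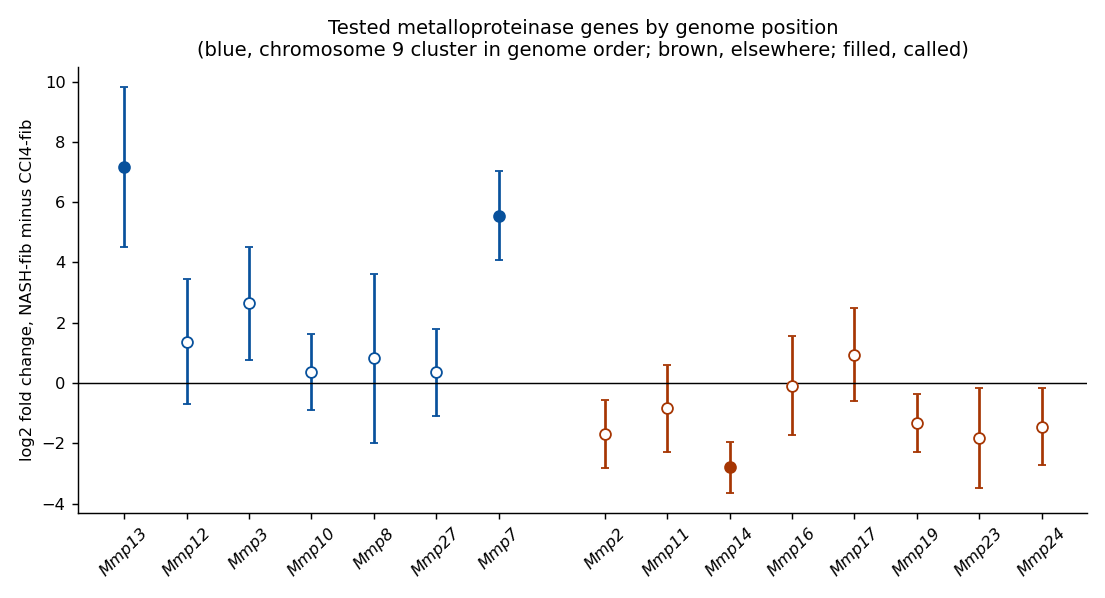
Points give the log2 fold change of NASH-fib minus CCl4-fib for the 15 tested metalloproteinase genes, with 95% confidence intervals, in genome order for the chromosome 9 cluster (blue) and by number for the others (brown). All blue points lie above 0 and all brown points but Mmp17 below, and the filled ones, Mmp13, Mmp7 and Mmp14, were called.

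Promoters of several cluster genes are known to carry an element for AP-1, the dimer of Fos and Jun proteins that acts at stromelysin and collagenase genes. Promoter windows in the RefSeq table (build GRCm38.p6, the same coordinates as mm10) were found for 7 of the 10 members and searched over the 250 bases before the transcription start for TGANTCA on both strands. The 4 cluster members each held 1 match, and the windows of Mmp11, Mmp14 and Mmp23 held none. Of all 32851 promoter windows of that length, 6.75% held a match. Over the whole family, 8 of 10 cluster genes and 0 of 8 genes elsewhere with a window had a match in at least 1 of their windows. No window was found for Mmp2, Mmp9, Mmp16, Mmp17 and Mmp19, all of them elsewhere. A match did not go with expression in every gene. Mmp1a and Mmp1b, which had one, were at 0 reads in all 9 libraries, and Mmp20 had at most 1 read in a library. The 4 sequences are shown because these genes include each member called higher in NASH-fib than in HSCs, with the match in capitals, 5′ to 3′ on the plus strand, each ending at the base before the start used in the file.
Mmp13, chr9:7272264-7272513: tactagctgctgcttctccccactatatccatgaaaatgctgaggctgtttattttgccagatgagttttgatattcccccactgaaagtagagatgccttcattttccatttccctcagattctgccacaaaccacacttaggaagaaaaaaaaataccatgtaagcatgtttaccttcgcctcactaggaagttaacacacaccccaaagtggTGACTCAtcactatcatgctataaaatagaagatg
Mmp12, chr9:7347124-7347373: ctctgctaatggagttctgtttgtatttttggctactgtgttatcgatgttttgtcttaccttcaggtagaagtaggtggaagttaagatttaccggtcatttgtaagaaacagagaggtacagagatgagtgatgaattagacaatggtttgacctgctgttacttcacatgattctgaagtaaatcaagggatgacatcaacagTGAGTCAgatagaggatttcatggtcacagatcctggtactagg
Mmp3, chr9:7445572-7445821: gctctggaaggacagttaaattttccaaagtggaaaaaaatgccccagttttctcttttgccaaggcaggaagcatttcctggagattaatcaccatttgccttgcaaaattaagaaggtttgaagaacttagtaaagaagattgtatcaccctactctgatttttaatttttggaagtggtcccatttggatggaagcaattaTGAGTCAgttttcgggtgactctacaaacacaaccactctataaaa
Mmp10, chr9:7502092-7502341: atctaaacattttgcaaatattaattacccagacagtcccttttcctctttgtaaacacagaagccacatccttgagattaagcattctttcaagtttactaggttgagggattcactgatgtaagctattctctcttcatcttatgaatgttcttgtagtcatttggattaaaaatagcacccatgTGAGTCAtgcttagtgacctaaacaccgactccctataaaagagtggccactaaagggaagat
The match began 35 bases before the start in Mmp13, 44 in Mmp12, 46 in Mmp3 and 63 in Mmp10, and it read TGACTCA in Mmp13 and TGAGTCA, the same element on the other strand, in the other 3. A second start listed for Mmp12 had no match in its window. A match is a description of letters and does not show that a factor was bound, and its absence from a window says nothing of the factor.

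**Figure D5:**
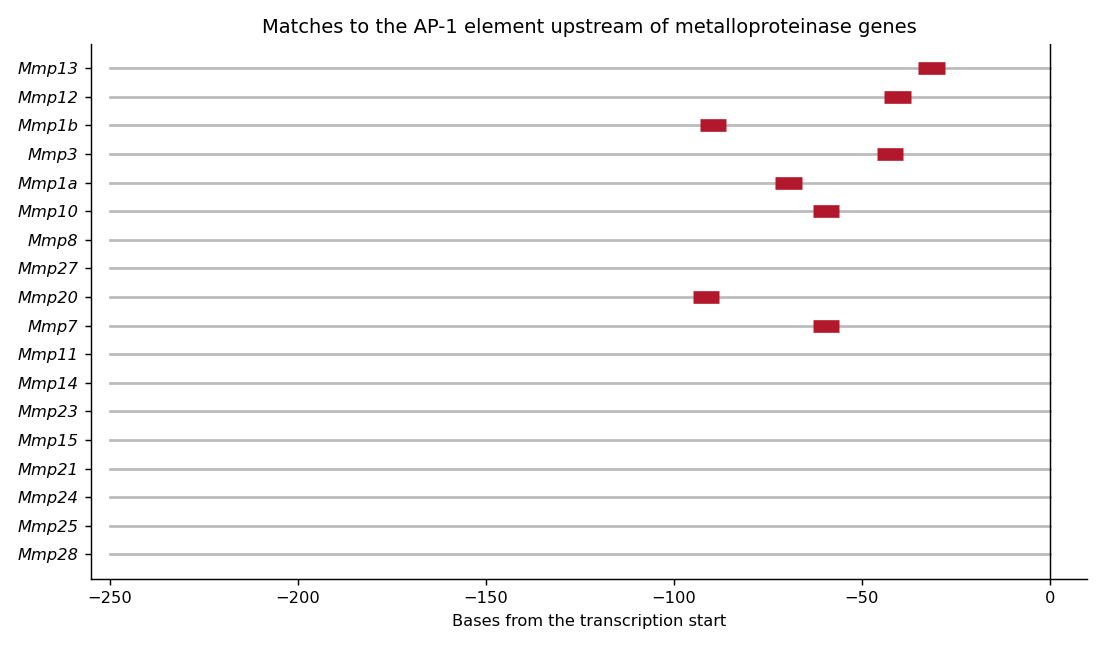
Lines show the 250 bases before the start of the 18 metalloproteinase genes with a promoter window and red blocks the matches to the AP-1 element on either strand. Matches lie in 8 of the top 10 genes, those of the chromosome 9 cluster, and in none of the 8 below.

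Genes of AP-1 subunits were in part higher in both kinds of fibroblast than in HSCs. Of 9 tested AP-1 and related factors, 5 were called higher and 2 lower than in HSCs in NASH-fib, where 8.23% of all genes were called higher and 4.3% lower, and 5 higher and 2 lower in CCl4-fib, where 16.2% and 11.7% were. Fos had a value of 94.7 ± 11.8 (SD, n = 3) in HSCs, 4761 ± 1368 in CCl4-fib and 2785 ± 589 in NASH-fib, with log2 fold changes against HSCs of 5.60 in CCl4-fib and 4.85 in NASH-fib (adjusted p = 7.41e-06 and 1.67e-05 from limma). The other 4 called higher were Fosb, Fosl2, Jun and Junb, and the 2 called lower were Ets1 and Ets2, named here after their values were seen. None of the 9 was called between the models by limma, edgeR or DESeq2 in either direction, with 0 higher and 1 lower at an unadjusted p under 0.05 in limma, and the difference of Fos was -0.75 (adjusted p = 0.164 from limma).

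Of the 13 metalloproteinase genes outside the 10, 6 passed the filter. Higher calls numbered 2 for NASH-fib against HSCs, 1 for CCl4-fib against HSCs and 1 between the models by limma and edgeR. DESeq2 called 4, 1 and 1, adding Mmp17 and Mmp27 in the first. Of all genes, limma called 8.23%, 16.2% and 4.97% higher, so the 1 of 6 for CCl4-fib against HSCs was near the share of all genes. There was no lower call by limma, edgeR or DESeq2, with 0, 0 and 1 at an unadjusted p under 0.05 in limma. Of all genes, limma called 4.3%, 11.7% and 5.66% lower. Mmp7, or matrilysin, an enzyme without the hemopexin domain that epithelial cells make, had values of 74.8, 45.4 and 51.1 in NASH-fib, 0 in all HSC libraries and 1 read in 1 CCl4-fib library. Its mean in NASH-fib was at least 14.9-fold higher than in HSCs and at least 22.0-fold higher than in CCl4-fib. Both differences were called (adjusted p = 0.000270 and 0.00477 from limma), and in 18 of 18 alternatives each. Cholangiocyte markers (4 genes) summed to 30.4 to 69.9 in HSCs, 1373 to 3223 in CCl4-fib and 874 to 1116 in NASH-fib. Most of the CCl4-fib sum was Krt19. Epcam, an epithelial surface protein, had a value of 0.97 ± 1.68 in HSCs, 3.57 ± 3.82 in CCl4-fib and 41.6 ± 23.3 in NASH-fib (SD, n = 3). Of the 4, only Epcam was called higher in NASH-fib than in CCl4-fib (3.40, adjusted p = 0.0352 from limma), by limma, edgeR and DESeq2. In the other direction, DESeq2 but neither limma nor edgeR called Krt19 lower in NASH-fib. Of all genes, limma called 4.97% higher there and 5.66% lower. The part of epithelial cells in the Mmp7 values was not tested. Mmp16, a membrane-type enzyme, had 0 reads in HSCs and was called higher in both kinds of fibroblast, at least 9.29-fold in CCl4-fib, with a bound of at least 8.81-fold in NASH-fib.

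Genes that act with these enzymes were described from a list of 44, made up of 10 inhibitors, 12 activators and docking partners, 3 clearance receptors, 9 substrates and the 10 AP-1 and related factors above, and 38 were tested. Against HSCs, NASH-fib had 18 of them called higher and 2 lower, where 8.23% and 4.3% of all genes were, and CCl4-fib 24 higher and 4 lower, where 16.2% and 11.7% were. Between the models, 3 were called higher in NASH-fib, against 4.97% of all genes, and 7 in CCl4-fib, against 5.66%. Timp1, the inducible inhibitor of metalloproteinases, had a value of 46.8 ± 35.7 (SD, n = 3) in HSCs, 2184 ± 631 in CCl4-fib and 1867 ± 983 in NASH-fib. It was higher than in HSCs in both, by log2 fold changes of 6.07 and 5.69 (adjusted p = 0.000480 and 0.00111 from limma). Between the models its difference was -0.38 (adjusted p = 0.786 from limma), and it turned to 0.19 without NASH-fib replicate 1. Spock2, a testican of the matrix that can act on membrane-type metalloproteinases, was higher in NASH-fib (4.38) and in CCl4-fib (3.24) than in HSCs. It was counted in the list of inhibitors, but whether it inhibits these enzymes was not tested. No gene of the 6 tested from that list was called between the models by limma, with 1 higher and 0 lower at an unadjusted p under 0.05, while edgeR and DESeq2 each called 1 higher, Reck, named after its values were seen.

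Of 12 activators and docking partners tested, limma called 5 higher and 0 lower in NASH-fib than in HSCs (1 at an unadjusted p under 0.05, Plg, which DESeq2 but not edgeR called), 7 higher and 1 lower in CCl4-fib than in HSCs, and 2 higher and 1 lower in NASH-fib than in CCl4-fib. Of all genes, limma called 8.23%, 16.2% and 4.97% higher and 4.3%, 11.7% and 5.66% lower in these comparisons. The lower calls, 1 of 12 each in the last 2, were thus near the share of all genes. Plat, tissue plasminogen activator, which makes plasmin, had a value of 35.3 ± 26.3 in HSCs, 2843 ± 183 in CCl4-fib and 1614 ± 1265 in NASH-fib (SD, n = 3), and was called higher than in HSCs in both, by 6.52 and 5.21, with no call between the models (-1.31, adjusted p = 0.266 from limma). Plaur, the receptor that holds urokinase on the cell surface, was higher than in HSCs in CCl4-fib (5.82) and in NASH-fib (3.17, adjusted p = 0.0147 from limma) and lower in NASH-fib than in CCl4-fib (-2.65, adjusted p = 0.0429 from limma). Its call in NASH-fib against HSCs rests on low values, 17.8 against 1.28, and held in 14 of 18 alternatives. It was lost with the date term (adjusted p = 0.0892 from limma) and without HSC replicate 1 (0.0578), NASH-fib replicate 2 (0.0529) or NASH-fib replicate 3 (0.0544). Plg, plasminogen, a product of hepatocytes, had a value of 387 ± 300 in HSCs, 4.06 ± 3.97 in CCl4-fib and 60.9 ± 41.4 in NASH-fib, the order of the summed hepatocyte markers given above, and their part in it was not tested. Pcsk6, a furin-like convertase, was higher in NASH-fib than in HSCs (2.99, adjusted p = 0.00225 from limma) and than in CCl4-fib (2.28, adjusted p = 0.0207). Lcn2, lipocalin-2, which binds and stabilises MMP-9, was higher in CCl4-fib than in HSCs (6.55, adjusted p = 0.00681 from limma), at 1407 ± 325 against 28.1 ± 29.6. In NASH-fib it was at 908 ± 763, a difference from HSCs of 4.75 (adjusted p = 0.0552 from limma) that edgeR and DESeq2 called, and it was not called between the models (-1.80, adjusted p = 0.432 from limma). The calls between the models were lost in several alternatives. Plaur kept its call in 9 of 18 (adjusted p from limma of 0.109, 0.188, 0.110, 0.0561 and 0.1004 without CCl4-fib replicates 1 and 2 and NASH-fib replicates 1, 2 and 3). Pcsk6 kept it in 15 of 18 (0.0868, 0.0662 and 0.0656 without CCl4-fib replicates 2 and 3 and NASH-fib replicate 3), and Plg, called at 3.85, in 13 of 18 (0.0782, 0.0676, 0.0583 and 0.0913 without CCl4-fib replicates 2 and 3 and NASH-fib replicates 1 and 3).

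All 3 receptors that clear metalloproteinases or collagen fragments were called between the models by limma and DESeq2, and all but Lrp1 by edgeR. Of all genes, limma called 4.97% higher and 5.66% lower in NASH-fib than in CCl4-fib. Lrp1, which takes up several metalloproteinases with their inhibitors, had a value of 2591 ± 419 in CCl4-fib and 721 ± 496 in NASH-fib (log2 fold change -2.16, adjusted p = 0.0435 from limma). Mrc2, the uptake receptor for cut collagen, was at 272 ± 23.3 in CCl4-fib and 94.5 ± 5.37 in NASH-fib (-1.51, adjusted p = 0.0213 from limma). Lrp2, or megalin, was higher in NASH-fib, at 668 ± 137 against 233 ± 33.5 (1.51, adjusted p = 0.0471 from limma). These calls held in 7 of 18 alternatives for Lrp1, 13 for Mrc2 and 7 for Lrp2, and the adjusted p reached 0.147, 0.0922 and 0.143 when 1 library was left out, CCl4-fib replicate 2 for the first 2 and CCl4-fib replicate 1 for the third.

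Genes of matrix proteins that these enzymes cut were lower in NASH-fib than in CCl4-fib for 4 of 8 tested by limma, against 5.66% of all genes. DESeq2 called 3 of them lower, Col1a1, Col3a1 and Fn1, and edgeR 1, Fn1. None was higher by limma (1 at an unadjusted p under 0.05), and edgeR and DESeq2 each called Spp1 higher. Fn1, fibronectin, a substrate of stromelysin-1, had a value of 1392 ± 240 in HSCs, 7753 ± 1544 in CCl4-fib and 1476 ± 110 in NASH-fib (SD, n = 3), and differed between the models by -2.37 (adjusted p = 0.00562 from limma), a call that held in 18 of 18 alternatives. Col3a1, which encodes a fibrillar collagen, was at 4856 ± 1809 in NASH-fib and 14161 ± 1901 in CCl4-fib (-1.60, adjusted p = 0.0261 from limma), called in 10 of 18 alternatives, with an adjusted p of 0.116 without CCl4-fib replicate 2. Eln, elastin, which Mmp12 degrades, was higher than in HSCs by 4.80 in CCl4-fib and by 3.49 in NASH-fib (adjusted p = 9.14e-05 and 0.000911 from limma). Spp1, osteopontin, which Mmp3 can cut, was higher than in HSCs by 6.10 in NASH-fib and by 4.00 in CCl4-fib, with values of 116 ± 72.0, 6944 ± 3285 and 1629 ± 747 in HSCs, NASH-fib and CCl4-fib. Col1a2, whose promoter drove the sorted fluorescence, is one of the 4 genes called lower in NASH-fib by limma (-1.39, adjusted p = 0.0445), but by neither edgeR nor DESeq2, and Col1a1 another (-1.25, adjusted p = 0.0462), which DESeq2 but not edgeR called, both named here after their values were seen.

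The genes whose log2 values ran most like each member over the 9 libraries are given as a description, since libraries of a group share their treatment, isolation and mice. For Mmp3 they were Smtnl2 (Pearson r = 0.989), Scn7a (0.989) and Fry (0.987), for Mmp10 Tmsb15l (0.997), Ptgfr (0.994) and Egr1 (0.988), and for Mmp13 Gm15217 (0.985), Clec4e (0.952) and Errfi1 (0.951). For Mmp12 they were Slfn10-ps (0.948), Ptprd (0.940) and Vnn1 (0.939), and for Mmp11 Slc35e4 (0.947), 4933427D14Rik (0.947) and Rwdd2a (0.942). For Mmp2 they were Rpp25 (0.992), Csdc2 (0.984) and Igf2r (0.981), for Mmp14 Mro (0.978), Cryaa (0.977) and Slc39a11 (0.977), for Mmp19 Dpep2 (0.988) and Best1 (0.986) and for Mmp23 Nedd4 (0.987), Srpk3 (0.986) and Ephb6 (0.986). Egr1 encodes an early response transcription factor, Clec4e a lectin receptor of myeloid cells and Igf2r the receptor that carries mannose 6-phosphate proteins to lysosomes. Among the members themselves r was 0.97 for Mmp2 with Mmp23, 0.94 for Mmp2 with Mmp19, 0.94 for Mmp3 with Mmp10 and -0.65 for Mmp13 with Mmp14.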

How the data were processed

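RNA of HSCs, CCl4-fib and NASH-fib, in 3 libraries from pooled mice per group, was amplified with the SMARTer Ultra Low Input kit and sequenced as single-end reads on a GAIIx. The authors aligned reads to mm10 with STAR and, per the file header, counted reads of both strands on RefSeq exons with HOMER, at most 3 per position and 1 entry per gene. CASAVA and STAR are named in the submitters' processing notes without versions. The deposited values are a signal, counts scaled by 1 factor per library in a run over 10 libraries. A library of a further group in that run is not used here. Whole reads were recovered for 100% of values (tolerance 0.05 of a read), and 0 value columns were left unused.

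The members and gene lists were chosen with earlier results of these data known. The named genes are the 10 members, up to 8 called genes of the other lists per comparison by size of change, and the 3 genes most correlated with each tested member. One of these genes is not reported here. Groups were compared with limma 3.58.1 in R 4.3.3, 1 fit over 9 libraries with a mean-variance trend, pseudocount 1, for genes kept by filterByExpr of edgeR 4.0.16 (minimum count 10). The steps were tested on simulated data. Each comparison was repeated under 18 alternatives, among them edgeR's quasi-likelihood test, DESeq2 1.42.0, other scalings and pseudocounts of 0.5 and 5, no filter, date and replicate terms, and each library left out. The count tools used recovered reads. RPKM was computed from the recovered reads, exon lengths in the file and reads on genes. Exon overlaps came from the GENCODE annotation of the same build. Titles number the replicates 1 to 3 in each group, but same-numbered libraries did not deviate together, so the numbers were not used as pairs. No library was a copy of another.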

Additional observations from a re-analysis of the deposited data

Results flagged for a closer look

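The changes of 2 members from HSCs differed between the 2 models by the test of that difference, which is the comparison of NASH-fib with CCl4-fib. Mmp13 differed by a log2 fold change of 7.17 (adjusted p = 0.0106 from limma, higher in 3 of 3 NASH-fib libraries than in any CCl4-fib library), and Mmp14 by -2.79 (adjusted p = 0.00644, lower in 3 of 3). In both cases the values within each shared date-like prefix had the same direction.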

How the results depend on the processing

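Each of the 3 comparisons was repeated under 18 alternatives. For NASH-fib against HSCs, 4 members were called higher, 7 with DESeq2, and 3 to 6 when 1 library was left out, with 0 lower throughout. For CCl4-fib against HSCs, 6 were higher (6 to 7 with 1 library left out), and 0 were lower except 1, Mmp13, with DESeq2 and without HSC replicate 3 (0 to 1). Between the models, 1 was higher, and 2 with DESeq2, with a pseudocount of 5 and with the 2 groups only (1 to 2 with 1 library left out). There 1 was lower, and 2 with DESeq2, with the 2 groups only and with the date term (1 to 2 with 1 library left out). Called values did not turn sign. Among uncalled ones, Mmp11 against HSCs in NASH-fib ran from -0.22 to 0.79 with 1 library left out, Fn1 there from -0.031 to 0.22, Timp1 between the models from -0.71 to 0.19 and Mmp16 between the models from -0.61 to 0.48. Mmp16 between the models turned to 0.070 (upper quartile), 0.072 (edgeR), 0.067 (DESeq2) and 0.33 (date term), and the cause was not tested. With the replicate number as a replicate block the counts of members were 4 higher and 0 lower, 6 and 0, and 1 and 1, as without it. Of 9 same-numbered pairs, 1 had a correlation of deviations over 0.1 (0.51, HSC and NASH-fib replicate 3). Mmp13 could not be fitted for CCl4-fib against HSCs on these 2 groups only, where it fell under the filter. A gene with 3 reads or fewer in each library of a group was not told from 0.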
